A study of Mus musculus with 64 samples.

Results

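Mbnl1 and 8 further genes of RNA-binding splicing factors (Hnrnpa2b1, Syncrip, Hnrnpk, Hnrnpu, Hnrnpa1, Srsf3, Srsf5 and Srsf11) were followed through transposon insertions in mouse diffuse large B cell lymphomas and control tails. The 9 genes were chosen by the number of their insertions and of the samples hit, out of 17126 gene names in the insertion table. They account for 344 of its 385883 lines, or 337 of 299594 insertions when each sample and target motif was counted once, and 61 of the 64 samples carried at least 1 of the lines.

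The mice carried a constitutively expressed transposase at the Rosa26 locus together with ITP transposons, so that mobilised copies insert throughout the genome. PiggyBac (PB) inserts at TTAA and Sleeping Beauty (SB) at TA. The study compared 30 PB tumours and 12 PB tails, both of the IMPB genotype, with 11 SB tumours and 11 SB tails of the IMSB genotype, all of mixed descent (C57BL/6, 129Sv and FVB). Per the study's methods the SB mice were bred from Rosa26 SB/+ and ITP1-C or ITP2-M parents that were Blm m3/m3, the PB mice came from an earlier ITP cohort, and the transposase is not restricted to B cells, so tails hold insertions too. Ages are not given in the sources used here, and every sample name carries its own mouse code. The material is bulk genomic DNA, so no marker transcript can test the labelled tissue, and an insertion found in few reads may lie in few tumour cells or in other cells of the sample.

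Splicing factors decide which exons of a precursor RNA are kept. MBNL1, a muscleblind protein, binds YGCY elements through zinc fingers and is best known because expanded CUG repeats sequester it in myotonic dystrophy. Proteins of the hnRNP class coat nascent RNA and often act as silencers of exons, whereas SR proteins bind exonic enhancers and promote exon inclusion, and members of both classes regulate their own transcripts.

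The tumours and tails had comparable numbers of insertions. A median of 4283 kept insertions was found per PB tumour (756 to 10800) and 3548 per PB tail (2035 to 7362), against 3835 per SB tumour (760 to 8786) and 4361 per SB tail (2537 to 7148). Reads on them numbered 55502 to 369482 per sample except in PB tumour 3, a spleen, which had 5721832. Levels are therefore given as insertions per 10000 kept insertions of the sample, and reads as ranks within a sample. PCR reads are not independent molecules. Each interval given is on the number of insertions in the tumour with the highest rate of a gene, and covers counting error only.

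Mbnl1 (RefSeq gene body on GRCm38 chromosome 3, 60472559 to 60629750, plus strand) had the most insertions of the 9 genes in each of the 4 groups. The PB tumours held 102 insertions in 25 of 30 samples, with a lowest, median and highest count of 0, 2 and 15. The PB tails held 18 in 11 of 12 samples, with 0, 1.5 and 3. Tumours with no insertion and tails with up to 3 mean that the groups overlapped. In the SB mice, 12 insertions lay in 7 of 11 tumours (0, 1 and 4) and 19 in 8 of 11 tails (0, 2 and 5). Scaled to the sample totals, Mbnl1 took 6.03 ± 5.07 insertions per 10000 in PB tumours (SD, n = 30), 4.62 ± 2.96 in PB tails (n = 12), 3.14 ± 3.76 in SB tumours (n = 11) and 3.73 ± 2.88 in SB tails (n = 11). These values count insertions by gene name, which for PB leaves out the upstream part of the gene described below. By name, any pair of the means differed by less than the SD of either group. The highest tumour, PB tumour 7 from a lymph node, had 15 Mbnl1 insertions among 8649, a rate of 17.3 per 10000 (95% Wilson interval 10.5 to 28.6). By site of the tumour the mean was 6.45 ± 4.30 in 9 mesenteric masses, 5.65 ± 4.60 in 6 spleens, 5.52 ± 6.79 in 6 mesenteric lymph nodes and 6.20 ± 5.68 in the 9 other lymph nodes or masses. By name all 9 mesenteric masses were hit, and 3 of the 6 mesenteric lymph nodes, but over the whole gene body 29 of the 30 PB tumours were hit.

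**Figure D1:**
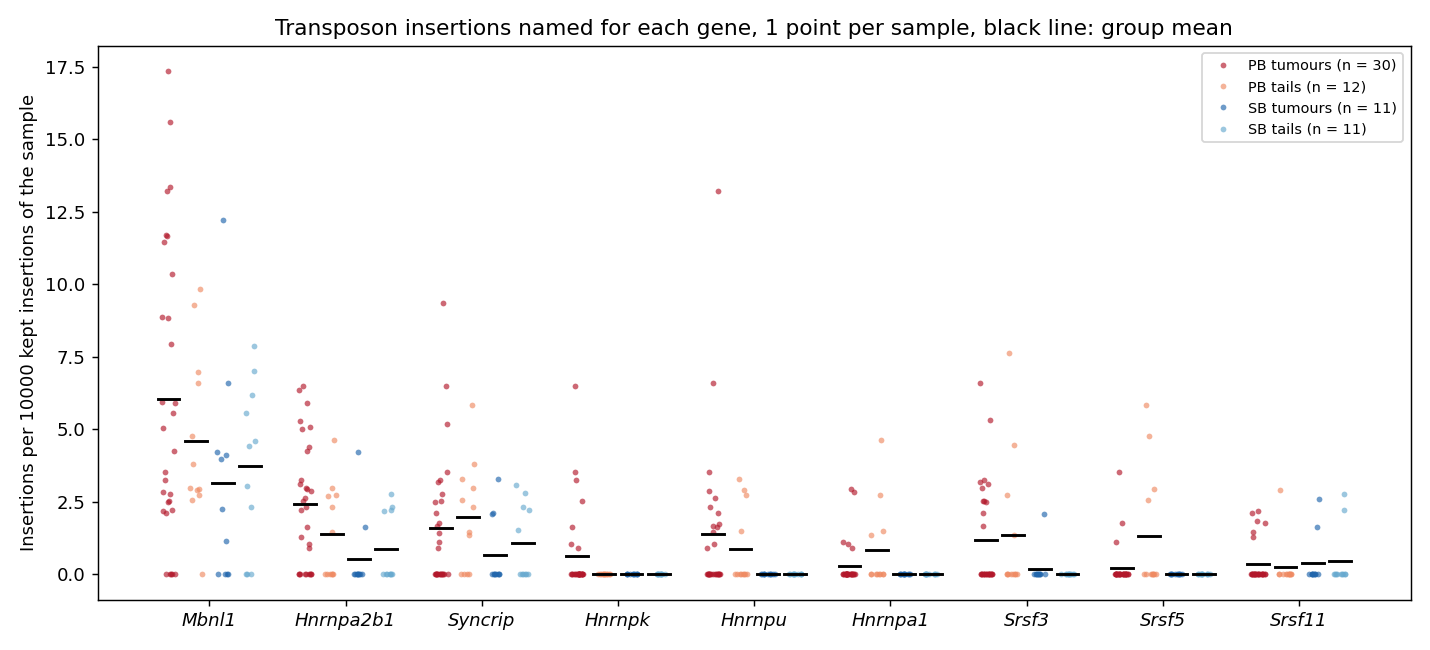
Insertions named for each gene per 10000 kept insertions of the sample (vertical axis), for tumours (30 PB, 11 SB) and tails (12 PB, 11 SB). Points are samples and black lines are group means: Mbnl1 has the highest mean in every group, and Hnrnpk, Hnrnpu, Hnrnpa1 and Srsf5 have no point above 0 in the SB groups.

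The name in the table depended on the transposon in the upstream part of Mbnl1. Within the first 28.6 kb of the gene body, before a further annotated start at 60501179, the 32 PB insertions were named intergenic while the 3 SB insertions were named Mbnl1. The 32 PB insertions comprised 31 in 17 of 30 tumours and 1 in 1 of 12 tails, that is 1.83 ± 2.11 per 10000 in tumours and 0.275 ± 0.954 in tails. Within the tumours this stretch held 15.3 insertions per 100 TTAA sites and the remaining 129 kb held 9.45, and within the tails 0.493 and 1.67. These densities are totals of a group, not scaled to its size, and are set side by side only within a group. The upstream stretch was singled out after its values were seen and the difference was not tested. Counted over the whole gene body, PB tumours had 133 insertions in 29 of 30 samples, 7.86 ± 5.89 per 10000. The mean was then 4.89 in PB tails, 3.14 in SB tumours and 3.73 in SB tails. By this count the PB tumour mean exceeded each SB mean by more than the SD of that SB group (3.76 in tumours, 2.88 in tails). These differences were smaller than the SD of the PB tumours and were not tested.

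Of the 102 PB tumour insertions named Mbnl1, 100 were intronic and 2 lay in untranslated exons of the NM transcripts, and none was in a coding exon. Introns hold 96.4% of the TTAA sites of the gene. The most shared Mbnl1 position was a TTAA in an intron, used in 3 tumours with 34, 11 and 6 reads, on both strands. The best-covered insertion was a different one. It had 2049 reads in PB tumour 11, a mesenteric lymph node, and ranked 19th of its 9444 insertions. Both sites are shown along the strand of the gene with the target motif in capitals, as the most shared and the best-covered site of Mbnl1.
Mbnl1, chr3:60570978-60571001, 3 tumours: tttctgttctTTAAaataaaactc
Mbnl1, chr3:60596439-60596462, 1 tumour: ataaattactTTAAtaatcttatt

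Hnrnpa2b1 (chromosome 6, 51460434 to 51470048, minus strand), whose protein binds UAG-containing RNA and helps to sort RNAs for transport, is short and had the second most insertions in PB tumours, after Mbnl1, while Syncrip exceeded it in the other 3 groups. There were 38 in 21 of 30 PB tumours, with a lowest, median and highest count of 0, 1 and 6, and 8 in 6 of 12 PB tails, with 0, 0.5 and 2. The rate was 2.42 ± 2.15 per 10000 in PB tumours (n = 30) and 1.40 ± 1.63 in PB tails (n = 12), ranges that overlapped. SB tumours had 3 insertions in 2 samples and SB tails 4 in 4 samples. Mesenteric lymph nodes had the highest mean rate, 4.49 ± 2.53 in 6 tumours, with 1.95 ± 1.97 in 9 mesenteric masses, 2.14 ± 2.17 in 6 spleens and 1.69 ± 1.36 in the 9 other tumours. Of the 38 PB tumour insertions 32 were intronic and 6 lay in untranslated exons, 84.2% intronic beside 82.7% of the TTAA sites.

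Several Hnrnpa2b1 sites were hit more than once, and some of its insertions were among the most covered of their libraries. A TTAA at the extreme 3′ end of the gene was hit in 4 tumours with 85216, 26, 3 and 2 reads, where the first value is from PB tumour 3, the library with the outlying read total, and ranked 12th of its 10800 insertions. An intronic TTAA was hit in PB tumour 11 with 3046 reads, the 5th rank of 9444, and in a tail and a further tumour with 22 and 2 reads. Another intronic TTAA was hit in 3 tumours with 117, 5 and 2 reads, all antisense. A further intronic TTAA held 1480 reads in PB tumour 29 (rank 26 of 3359) and 40 in a tail. In SB mice an intronic TA held the best-covered insertion of SB tumour 6, a spleen, with 4074 reads (rank 1 of 4750), and the same TA was hit in SB tail 5, a differently coded mouse, with 81 reads (rank 28 of 4505), on the same strand. The lowest read number of any insertion in the data is 2, and the samples hit at a site were counted without a higher minimum. With at least 10 reads required, no TTAA of Hnrnpa2b1 was hit in 3 samples, so the recurrence rests partly on insertions of few reads. The PB sites hit in at least 3 samples without that minimum are shown along the strand of the gene, with the target motif in capitals.
Hnrnpa2b1, chr6:51460425-51460448, PB, 4 samples: caattgttttTTAAacagtgaaat
Hnrnpa2b1, chr6:51464716-51464739, PB, 3 samples: ttctgggatcTTAAgttgctttat
Hnrnpa2b1, chr6:51467612-51467635, PB, 3 samples: ttaataccctTTAAatgacctaag

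Syncrip (chromosome 9, 88449364 to 88482591, minus strand), which encodes the cytoplasmic hnRNP Q, had overlapping rates in tails and tumours. It had 23 insertions in 15 of 30 PB tumours (0, 0.5 and 3) and 10 in 8 of 12 PB tails (0, 1 and 2). That is 1.59 ± 2.26 per 10000 in PB tumours and 1.97 ± 1.85 in PB tails, and 0.680 ± 1.21 in SB tumours and 1.09 ± 1.31 in SB tails, in each of which it was hit in 3 and 5 of 11 samples. A further 15 insertions in its gene body carried the name Gm20537 in the table. The best-covered insertion had 627 reads in PB tumour 14, a mesenteric lymph node (rank 21 of 3209), and 1 intronic TTAA was hit antisense in 1 tumour and 2 tails with 23, 17 and 6 reads. Both are printed along the strand of Syncrip.
Syncrip, chr9:88477946-88477969, PB, 1 sample: agtgctgggaTTAAaggtctgcgt
Syncrip, chr9:88478435-88478458, PB, 3 samples: tgaatactttTTAAattgatacat

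The remaining hnRNP genes had fewer insertions. Hnrnpu (chromosome 1, 178321108 to 178338891), encoding the scaffold attachment factor hnRNP U, had 19 in 13 PB tumours and 4 in 4 PB tails, 1.39 ± 2.69 and 0.870 ± 1.35 per 10000. Its highest rate, 13.2 (95% Wilson interval 2.34 to 74.5), stood for 1 insertion in the smallest library of 756. Hnrnpu was also the gene with the most coding-exon hits, 3 of 19. Hnrnpk (chromosome 13, 58391132 to 58403343), whose KH domains bind C-rich sequence, had 8 insertions in 7 PB tumours and none in PB tails or SB mice. With 0 of 48121 tail insertions a pooled rate of up to 0.623 per 10000 is allowed, taking 3 insertions as the bound. The 0.647 ± 1.48 of the PB tumours is a mean of sample rates, so these values are not like measures. Hnrnpa1 (chromosome 15, 103239943 to 103246698), which antagonises SR proteins at many exons, had 5 insertions in 5 PB tumours and 4 in 4 PB tails, or 0.296 ± 0.774 and 0.851 ± 1.49 per 10000. A single intronic TTAA held 3 of these 9, in 1 tumour with 144 reads and in 2 tails with 11 and 5 reads, and is shown for that reason.
Hnrnpa1, chr15:103240642-103240665, PB, 3 samples: gaggcctactTTAAaaaaatgcag

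Among the SR protein genes Srsf3 was hit most. Srsf3 (chromosome 17, 29032660 to 29043372, plus strand), the smallest SR protein and a factor also used in RNA export, had 18 insertions in 11 PB tumours (0, 0 and 3) and 7 in 4 PB tails (0, 0 and 3). The rates, 1.19 ± 1.81 and 1.35 ± 2.44 per 10000, overlapped, and the SB mice had 1 insertion in all, in a tumour. Exons of the untranslated part held 7 of the 18 tumour insertions (38.9%, with 24.5% of the TTAA sites) and none of the 7 in tails. Its best-covered insertion, in an intron, had 976 reads in PB tumour 11 (rank 95 of 9444).
Srsf3, chr17:29040543-29040566, PB, 1 sample: gcattctttgTTAAaatgaatcca

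Srsf5 (chromosome 12, 80945495 to 80950507) and Srsf11 (chromosome 3, 158010915 to 158036667), an SR protein and a larger SR-related one, were hit less often than Srsf3 over all samples. Srsf5 had 4 insertions in 3 PB tumours and 6 in 4 PB tails, 0.214 ± 0.732 and 1.34 ± 2.14 per 10000, and none in SB mice. Srsf11 had 8 in 6 PB tumours, 1 in a PB tail, and 2 each in SB tumours and SB tails. Here the tails had the higher mean for Srsf5 and the tumours for Srsf11, and in both genes most samples of either group had none.

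The number of insertions was also set against that expected from motif sites. The expected number is the insertions of the chromosome times the share of its TTAA or TA sites in the gene body, and leaves out the preference of transposons for open chromatin. In PB tumours Hnrnpa2b1 had 38 insertions where 1.17 were expected, 32.3 times, the highest ratio of the 10560 genes with at least 1 expected. Srsf3 had 13.6 times the expected number (19th), Hnrnpu 11.1 times (35th) and Mbnl1, with 133 against 14.2, 9.39 times (57th). Syncrip had 7.16, Hnrnpk 5.13 and Srsf11 2.94 times, and Hnrnpa1 and Srsf5, with under 1 insertion expected, 9.05 and 5.87 times. In PB tails the ratio was 28.7 for Srsf5, 22.6 for Hnrnpa2b1, 18.4 for Srsf3, 14.7 for Hnrnpa1, 12.2 for Syncrip, 9.02 for Hnrnpu, 4.24 for Mbnl1 and 1.16 for Srsf11, and Hnrnpk had no insertion. The ratio was higher in tails than in tumours for Srsf3, Srsf5, Hnrnpa1 and Syncrip and lower for the other 5 genes, differences that were not tested. By a Wald test with Bonferroni adjustment over all genes, with a minimum of 3 samples hit and of 5% of the group, 7 of 9 members passed in PB tumours, where 4.97% of 22558 genes did. Without PB tumour 3 the number was 6, and by the exact Poisson test with the same adjustment it was 5, beside 646 of 22558 genes. In PB tails 7 of 9 passed beside 1.25% of genes, and 5 by the adjusted exact Poisson test, beside 83 of 22558 genes. In SB tumours 0 passed beside 0.398% of 23859. Unadjusted, 5 had a Wald p under 0.05, among them Hnrnpa1 on 1 insertion with 0.142 expected. The share of all genes at that unadjusted level was not counted, so nothing is read from the 5. The adjusted exact Poisson test also called 0 in SB tumours. In SB tails 3 passed, Mbnl1, Hnrnpa2b1 and Syncrip, beside 0.18%. These counts are of the kind that chose the 9 genes and are given as a description. An SB gene with few TA sites is expected to receive under 1 insertion over a group, so SB counts say little about the smaller genes.

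**Figure D2:**
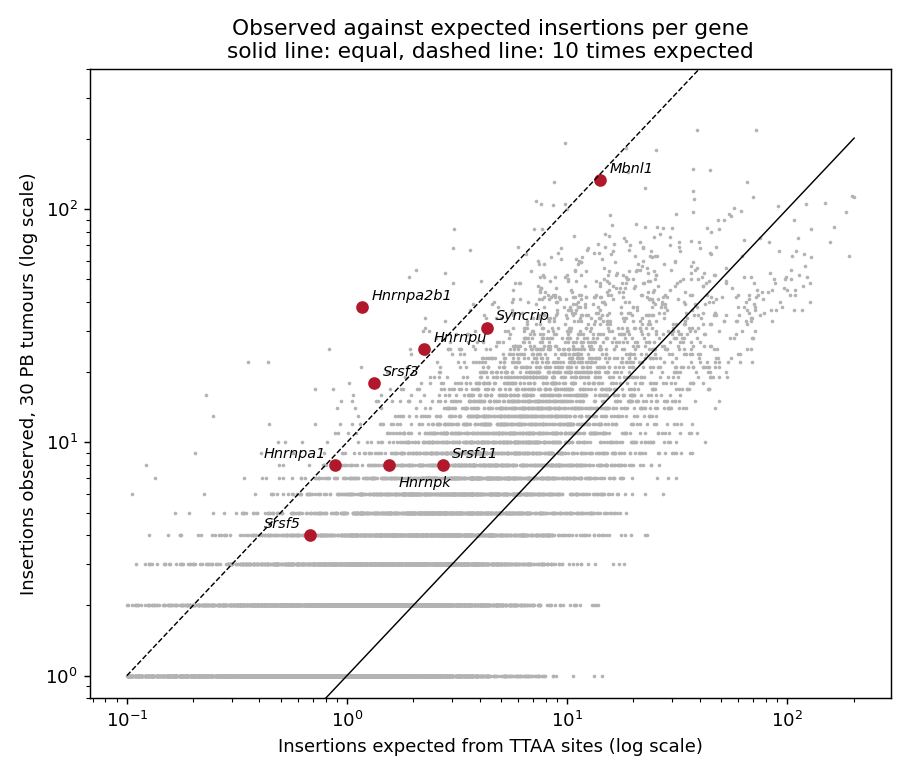
Insertions observed in 30 PB tumours (vertical axis, log scale) against those expected from TTAA sites (horizontal axis, log scale) for each gene with at least 1 insertion and at least 0.1 expected. Red points are the 9 genes, grey points all others; Hnrnpa2b1, Srsf3 and Hnrnpu lie above the dashed line of 10 times the expected number, and Mbnl1 lies just under it at 9.39 times.

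Between PB tumours and PB tails, edgeR's quasi-likelihood test with Benjamini-Hochberg adjustment over 3502 genes called 0 of the 7 members tested, where 2.08% of genes were called higher and 2.26% lower in tumours. DESeq2 called 0 of the 4 members to which it gave an adjusted p. At an unadjusted p under 0.05 edgeR had 2, Mbnl1 with a log2 difference of 0.96 ± 0.38 (SE, tumour over tail) and Srsf5 with -1.56 ± 0.55. The other 5 lay between -0.67 ± 0.46 for Syncrip and 0.50 ± 0.52 for Hnrnpa2b1. In the SB mice 0 of 2 members tested were called, with 0 at an unadjusted p under 0.05 and 0 by DESeq2, beside 0.693% of genes higher and 0.173% lower. With TMM factors Mbnl1 passed in the PB comparison. Sample names are written in 2 forms, with the first parts joined or separated. Within the joined form the rate of insertions named Mbnl1 was 6.83 ± 5.09 in 22 tumours and 4.73 ± 3.52 in 5 tails. Within the separated form it was 3.84 ± 4.63 in 8 tumours and 4.54 ± 2.79 in 7 tails. These rates leave out the upstream PB insertions named intergenic, which edgeR counted with the gene body, so they are not on the measure tested. What the form of the name stands for is not given in the labels. A gene that was not called is not shown to be hit equally in tumours and tails. The insertion counts that chose the genes include both sides of this comparison.

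Orientation, position and reads played no part in the choice. The table does not state which transposon end its strand refers to, so sense means only that the listed strand is that of the gene. Mbnl1 had 45 sense and 57 antisense insertions in PB tumours and 8 and 10 in PB tails. Hnrnpa2b1 had 16 sense and 22 antisense in PB tumours, Syncrip 8 and 15, and Srsf3 12 and 6, against 1 and 6 for Srsf3 in PB tails. Over tumours, 12 had more sense and 14 more antisense insertions in the gene body of Mbnl1 (exact two-sided sign test, p = 0.845). None of the 7 members with at least 6 untied tumours passed after Benjamini-Hochberg adjustment, with 0 at an unadjusted p under 0.05, and 0% of 3875 genes passed.

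Along the gene, no member passed the test of position against its TTAA sites. For Mbnl1 the mean relative position (0 at the start, 1 at the end) was 0.404 ± 0.201 over 29 PB tumours, with the median TTAA at 0.537, and 22 of 29 tumours lay on the start side (exact two-sided sign test, p = 0.00813, adjusted p = 0.313 over all genes). With at least 10 reads Mbnl1 no longer had an unadjusted p under 0.05. The same held with the table's gene names, which leave out its upstream PB insertions. The 11 PB tails had 0.528 ± 0.249 and 7 on the start side. In Srsf3 all 11 PB tumours lay toward the end (0.742 ± 0.140, median TTAA 0.508, exact sign test p = 0.000977, adjusted p = 0.114), whereas 3 of the 4 PB tails lay toward the start (0.383 ± 0.259). That p is the smallest the sign test can give with 11 tumours. Over these 4082 genes neither Srsf3 nor a member with fewer tumours could therefore pass, whatever its positions. For Hnrnpa2b1 15 of 21 tumours lay toward the start (exact sign test, p = 0.0784). None of 8 members passed after adjustment, 2 had an unadjusted p under 0.05, and 0.0735% of 4082 genes passed. Differences between tumours and tails in position were not tested.

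**Figure D3:**
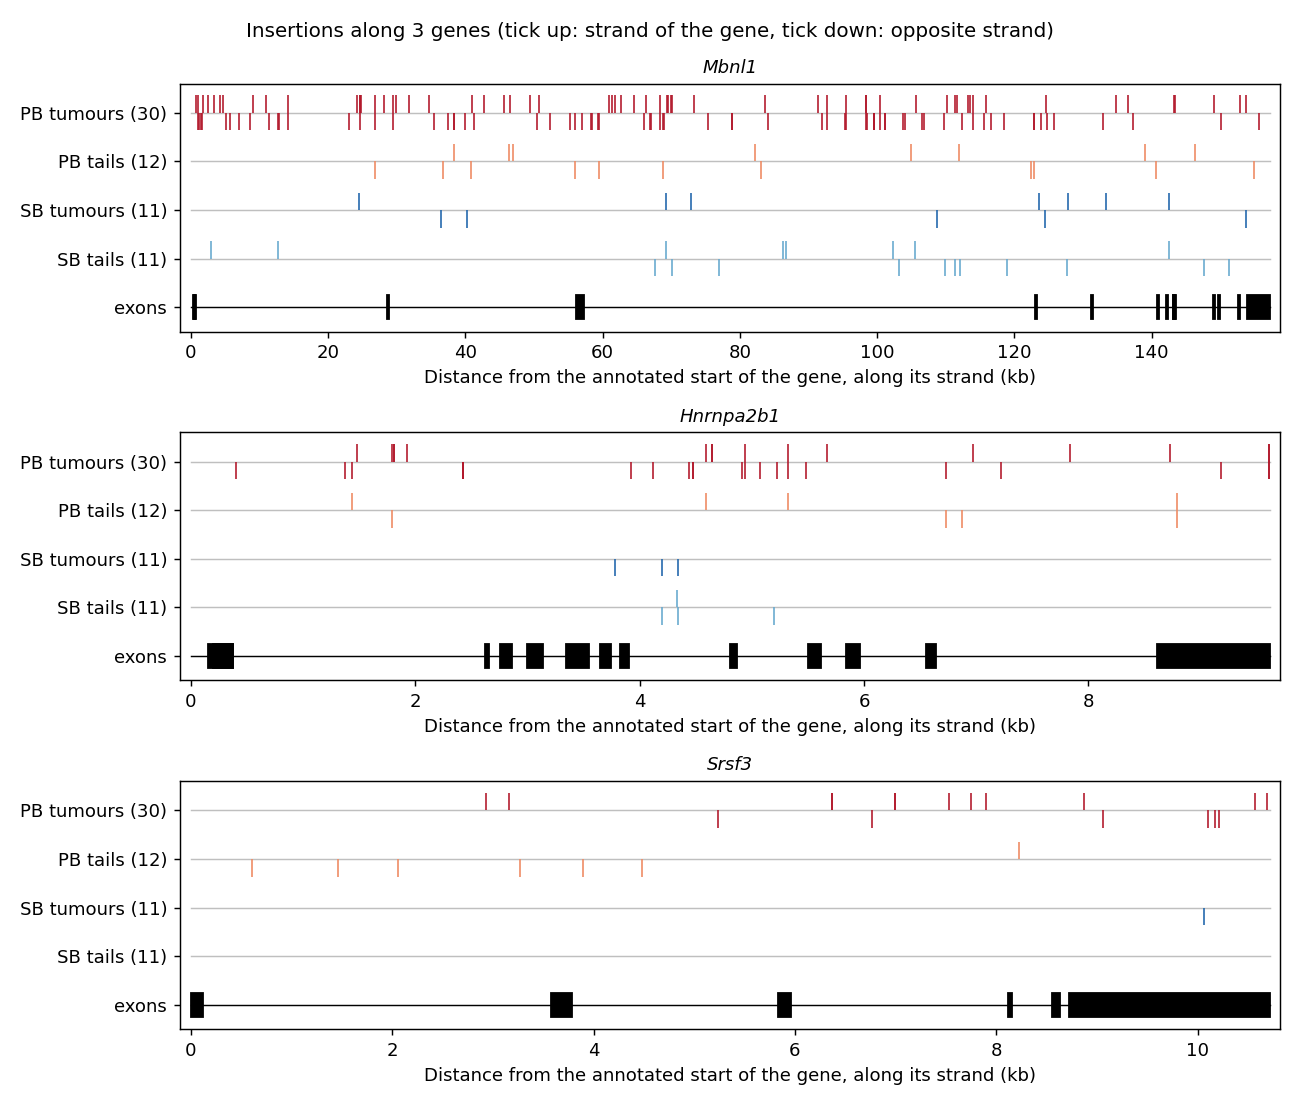
Insertions along Mbnl1, Hnrnpa2b1 and Srsf3 by distance from the annotated start in kb (horizontal axis), 1 row per group, with exons of the NM transcripts as black boxes. Ticks up are on the strand of the gene and ticks down on the opposite strand: Mbnl1 is hit over its whole length on both strands with 31 PB tumour insertions in its first 28.6 kb, and Srsf3 tumour insertions lie on average at 0.742 of its length.

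The reads behind an insertion give a rough rank of how widespread it is in a sample. Most member insertions had few: the median was 7 reads for Mbnl1, 10.5 for Hnrnpa2b1, 5 for Syncrip and 18 for Srsf3 in PB tumours. In PB tails these medians were higher, 22, 15, 20.5 and 19 in the same order, and the difference was not tested. Percentiles within the sample, averaged per PB tumour, were 51.0 ± 17.9 for Mbnl1 (n = 29), 59.3 ± 28.1 for Hnrnpa2b1 (n = 21), 49.8 ± 27.2 for Syncrip (n = 19) and 61.2 ± 28.7 for Srsf3 (n = 11). Each mean lay within its SD of the midpoint of 50. No member of 8 passed the exact sign test against 50, with 0 at an unadjusted p under 0.05, and 0% of 4089 genes passed. For Mbnl1 the tumours were 4.42 percentile points above the tails (51.0 ± 17.9, n = 29, and 46.6 ± 19.8, n = 11), a difference smaller than either SD (two-sided permutation test with 100000 resamples, p = 0.506).

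**Figure D4:**
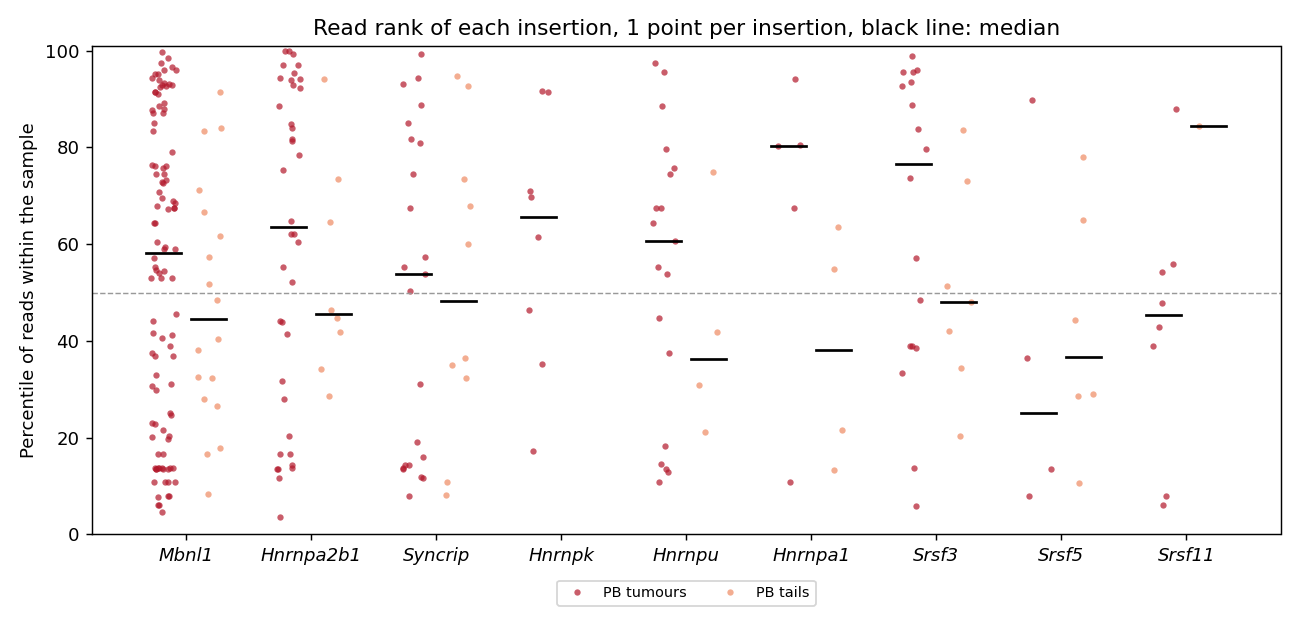
Percentile of the reads of each insertion among all kept insertions of its sample (vertical axis) for the 9 genes in PB tumours and PB tails. Points are insertions, black lines are medians and the dashed line is the midpoint of 50; points spread over the whole range, with 3 Hnrnpa2b1 tumour insertions above 99.

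Positions used in more than 1 sample were unevenly spread over the genes. In PB samples 73 of 283 member insertions (25.8%) lay at a TTAA also hit in another sample, with 8.91% over all 204996 PB insertions. The number was 28 of 46 for Hnrnpa2b1, 5 of 9 for Hnrnpa1, 4 of 10 for Srsf5 and 9 of 33 for Syncrip. It was 4 of 23 for Hnrnpu, 4 of 25 for Srsf3, 19 of 120 for Mbnl1, 0 of 9 for Srsf11 and 0 of 8 for Hnrnpk. The shares of the genes with under 11 insertions rest on few sites. No minimum of reads was set for any of the shares, so insertions with only 2 reads are included. Sharing also rises with the number of insertions per TTAA site, and Hnrnpa2b1 had its 46 on 104 sites. As the 9 genes were chosen by their insertions, the shares are a description and were not tested against the share over all insertions. In SB samples 2 of 54 member insertions were shared, both at the same Hnrnpa2b1 TA.

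By mean insertions per 10000 in the 4 groups (Euclidean distance of log2 rates with a pseudocount of 0.1, over 555 other genes with at least 30 PB tumour insertions), the genes nearest to Mbnl1 were Lpp (distance 0.52), Stag1 (0.61) and Immp2l (0.74). Nearest to Hnrnpa2b1 were Dyrk1a (0.38), Znrf3 (0.44) and Ano6 (0.46).

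A wider list of 121 genes of splicing, which includes the 9, gave their setting, and 115 of them could be fitted. In PB tumours 43 of the 115 passed the Wald test, with 13 of 25 hnRNP genes, 11 of 18 SR and SR-related genes, 3 of 6 kinases of SR proteins, 6 of 34 core spliceosome genes, 2 of 6 muscleblind and CELF genes and 8 of 26 other regulators. The median ratio to expectation was 3.62, with 0.758 over all genes, 4.97% of which passed. In PB tails 17 passed (1.25% of all genes) with a median ratio of 2.14, in SB tumours 1 (0.398%) and in SB tails 4 (0.18%), the median over all genes being 0 in these 3 groups. Outside the 9 genes the numbers were 36 of 106 in PB tumours, 10 in PB tails, 1 in SB tumours and 1 in SB tails. Of the genes outside the 9, the highest ratios among those with at least 10 PB tumour insertions were 12.8 for Srsf1 and 12.4 for Srsf7 (both SR proteins), 10.9 for Snrnp70 (a protein of the U1 snRNP), 10.02 for Clk1 (a kinase of SR proteins) and 8.28 for Srsf4.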

How the data were processed

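Transposon junctions were amplified by splinkerette PCR and sequenced by the authors, and the deposited table holds 385883 lines, each with a position on mm10, a strand, a gene name and a raw count of reads, not normalized. The aligner and read filters are not given in the sources used here. A further per-sample column (1 column) was not used. Each position was assigned to the closest motif at most 5 bp away and counted once per sample, and insertions were dropped on sex chromosomes and on donor chromosome 14. Levels use the table's gene names and tests use RefSeq gene bodies of GRCm38. The 9 genes and the splicing list were chosen with earlier results of these data known. Named besides the members are the 5 listed genes with the highest PB tumour ratio (at least 10 insertions) and the 3 nearest genes of Mbnl1 and of Hnrnpa2b1. Tools were edgeR 4.0.16, DESeq2 1.42.0, R 4.3.3 and scipy 1.17.1. The edgeR test was also run on simulated data, and DESeq2 was not. Alternatives were an exact Poisson test, presence per sample, at least 10 reads, the gene names, TMM, no minimum, the form of sample names and, added after seeing the data, leaving out PB tumour 3.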

Additional observations from a re-analysis of the deposited data

How the results depend on the processing

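Of 54 alternatives over 11 results, 50 left the test on the same side of its threshold, the count within 1.5 times or, for the Mbnl1 rate, the mean within 1 SD (5.07). Many of the 50 set 0 members called against 0, and the bound for the Mbnl1 rate is wide. The 50 of 54 is therefore not a measure of robustness. In SB tails the members above expectation went from 3 to 1 with the exact Poisson test and to 1 with presence per sample. With the table's gene names 2 members, Syncrip and Srsf3, passed the position test in PB tumours, where 72 of 3538 genes passed in place of 3 of 4082. That setting leaves out insertions named otherwise but keeps the median TTAA of the whole gene body, so its measure differs. For Syncrip, insertions named Gm20537 lay at the end of the gene (88450447 to 88455895). Over its whole body 13 of 19 tumours lay on the start side (exact sign test, p = 0.167). The cause was not tested. With TMM factors 1 member, Mbnl1, passed between PB tumours and tails, the cause again untested. The Mbnl1 read rank difference ranged from 1.54 to 16.2 percentile points (permutation p from 0.0814 to 0.890). The Mbnl1 rate in PB tumours ranged from 3.84 per 10000 (samples with separated name parts) to 9.20 (at least 10 reads).

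No paired analysis was possible because every sample comes from a differently coded mouse and replicate numbers only name samples. Few insertions per gene and sample limit precision. A gene at 0 in SB tumours is compatible with a pooled rate of up to 0.685 per 10000. A library of 756 insertions turns 1 insertion into 13.2 per 10000.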
